A study of Homo sapiens with 11 samples.

Results

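The comparison described here is the change in RNA between 24 h and 48 h in MDA-MB-231 cells that carried an siRNA against MASTL. It rests on 5 of the 11 arrays of the series, chosen by their labels alone: replicates 1 and 3 at 24 h and replicates 1, 3 and 4 at 48 h. MDA-MB-231 is an established line from a human triple-negative breast adenocarcinoma. Cells of every group received Lipofectamine RNAiMAX, with either the Hs_MASTL_6 FlexiTube siRNA or the AllStars Neg. Control siRNA. The control arrays, 3 at 24 h and 3 at 48 h, show here how far the same RNAs moved with time in cells without silencing. One siRNA sequence was used against MASTL. Within the silenced arrays, the duration of silencing, the time after transfection and the time in culture cannot be told apart. The labels number the replicates without saying that they were separate cultures, and the tests below therefore describe how arrays varied, which may be technical variation.

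MASTL is the human Greatwall kinase. It phosphorylates the small proteins ENSA and ARPP19, which then inhibit the phosphatase PP2A bound to its B55 subunit, and so lets mitotic phosphorylation build up. Several other programmes read below are known for following the state of a culture: the NRF2 antioxidant genes, the ATF4 amino acid response, the hypoxia genes driven by HIF, the SREBP genes of lipid synthesis, and the E2F and mitotic genes of dividing cells.

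3 sequences belong to the findings. The first is the siRNA as the labels print it, in DNA letters and all in capitals because the whole stretch is the targeted one. The other 2 are the 250 bases before the start of CXCL1, on chr4:73869143-73869392 of GRCh38.p14, plus strand, and of ASNS, on chr7:97872409-97872658, minus strand, both from RefSeq. They are shown because CXCL1 and ASNS stand for the inflammatory genes that read higher and the amino acid genes that read lower at 48 h, and because a match to a motif tied to each group stands in the window. They were picked for that match: the IL1B window held no kappaB match, those of SLC3A2 and PPP1R15A held no ATF4 match, and that of TCN1, which read higher at 48 h, held one. In CXCL1 the capitals mark a match to a kappaB motif, searched as GGG, any 2 bases and TTTCC. In ASNS they mark a match to the ATF4 element letters TGATGNAA.
MASTL siRNA: ACGCCTTATTCTAGCAAATTA
CXCL1: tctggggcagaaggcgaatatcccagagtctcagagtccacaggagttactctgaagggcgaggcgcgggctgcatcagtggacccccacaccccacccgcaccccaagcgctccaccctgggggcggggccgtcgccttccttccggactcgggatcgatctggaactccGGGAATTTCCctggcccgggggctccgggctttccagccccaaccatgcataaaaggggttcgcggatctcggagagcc
ASNS: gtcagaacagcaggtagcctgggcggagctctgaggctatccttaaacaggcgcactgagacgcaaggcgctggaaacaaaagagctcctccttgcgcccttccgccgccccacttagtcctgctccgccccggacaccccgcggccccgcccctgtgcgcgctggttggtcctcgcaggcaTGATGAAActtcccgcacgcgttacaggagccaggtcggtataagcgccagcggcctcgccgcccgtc
The kappaB match began 79 bases before the CXCL1 start, and 1.73% of 35116 such windows held one on either strand. The ATF4 match began 68 bases before 1 of the 2 ASNS starts listed, and 3.14% of windows held one. A letter match is a description of these windows and not a binding site. Letters of the antioxidant element, TGACNNNGC, stood in 10.9% of windows. They occurred in both windows listed for TXNRD1 and were not found in the one for NQO1. Windows of ALDOC, CD24 and TCN1, which read higher at 48 h, and of SLC3A2 and PPP1R15A, which read lower, also held them. The 3 motifs were searched on both strands and do not overlap in the windows printed.

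Each bead array gave 47321 normalized values. On a log2 scale 22743 of them exceeded 7.41, taken as the limit of noise. The RNA of 22013 features was tested, 13971 of them named genes, each read by its probe of highest mean. All values below are on the authors' normalized log2 scale, and all changes are log2 differences between group means. In pairs, MASTL siRNA arrays correlated at 0.9965 at 24 h and between 0.9903 and 0.9957 at 48 h, and arrays of different times between 0.9881 and 0.9955. 2 arrays stood apart in many of the genes below. Among the 48 h arrays, replicate 4 gave the median nearest to the 24 h level in 21 of the 36 gene groups read. Replicate 2 of the 24 h controls read sterol genes far above the other control arrays of that time (INSIG1 at 12.79 against 10.82 and 11.13). It takes part in every test through the shared estimate of the spread, so the calls that it decides are given with and without it for the genes named. It was singled out by its values for sterol genes and NQO1, and leaving it out lowers their SE. Passes of such genes without it follow from that choice and are no added support for a change. The 5 epithelial markers tested of 6 exceeded that limit on all 5 silenced arrays, while CDH1 was not among the tested features. Their summed log2 value above noise ran from 9.04 to 9.82 at 24 h and from 10.01 to 10.70 at 48 h, and its part in the results was not tested. The markers in the sum did not move together: KRT19 differed by 0.89, KRT8 by 0.07 and EPCAM by -0.29. VIM, a mesenchymal filament gene, read between 13.84 and 14.08. The other mesenchymal markers tested, CDH2 (7.44 to 7.53) and FN1 (7.48 to 7.71), lay close to the noise limit, and SPARC was not tested. PECAM1, the endothelial marker tested, read between 7.49 and 7.80. Of the leukocyte markers CD14, LYZ and CD68 were tested, with sums of 3.64 to 3.84 at 24 h and 3.68 to 4.35 at 48 h. The leukocyte genes PTPRC and CD3E and the luminal receptors ESR1 and PGR were not among the tested features. The 5 luminal markers tested of 7 exceeded the noise limit on all 5 silenced arrays. Among them ERBB2 read between 8.99 and 9.26, FOXA1 between 7.79 and 7.99 and GATA3 between 7.57 and 7.65. KRT8 and KRT18 count among the epithelial markers too.

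MASTL itself read 7.61 and 7.69 at 24 h and 7.54, 7.53 and 7.67 at 48 h under its siRNA. The 2 times overlapped, with a change of -0.07 (SE 0.0913, limma adjusted p = 0.853, 95% interval -0.28 to 0.14). Its other probe differed by -0.02. The control arrays read MASTL between 8.41 and 8.74, above every silenced array. The silenced level lay just over the noise limit, which bounds how much further loss between the times these values can show. The partners of the kinase gave small differences: of 11 tested genes of the Greatwall and PP2A-B55 axis 0 passed the test, 6 were positive and 5 negative, with a median of 0.00424, whose sign turned without replicate 1 at 24 h (-0.0126) or replicate 3 at 48 h (-0.00455). ARPP19 differed by 0.21 (SE 0.113) and ENSA by 0.05 (SE 0.117), both overlapping between the times. PPP2R2A, the B55 alpha subunit, read 9.62 and 9.57 at 24 h and 9.57, 9.40 and 9.36 at 48 h, a change of -0.15 (SE 0.0569, limma adjusted p = 0.467).

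Across the 22013 features, 1 passed the test at 48 h against 24 h under MASTL siRNA, a rise, which is 0.00454% of those tested, and 0 fell. At an unadjusted p under 0.05 there were 2113 features (9.6%), 971 higher (4.41%) and 1142 lower (5.19%). By size, 77 features were at least 1.5-fold higher (0.35%) and 20 at least 1.5-fold lower (0.0909%). The 48 h and 24 h arrays did not overlap for 2865 features that were higher (13%) and 3281 that were lower (14.9%), and these shares are the background for the counts of groups below. With 3 arrays against 2 there are 10 splits. An exact permutation test of a single gene, two-sided, therefore cannot give a p below 0.05, so single genes rest on limma's pooled spread. The median SE of a change was 0.042. Under control siRNA 0 features passed the same test in either direction (0%), with 2181 (9.91%) at an unadjusted p under 0.05. For the difference between the time changes of silenced and control cells it was again 0 in either direction (0%), with 663 (3.01%) at an unadjusted p under 0.05. That fit does not pair control with MASTL siRNA arrays of the same number at a time. With a replicate block within each time, 0 passed for the difference and 2113 had an unadjusted p under 0.05. The absence of calls is therefore no evidence that the time changes were equal. The time changes of silenced and control cells, which share no array, correlated across features at a Pearson r of 0.689 and a Spearman rho of 0.485. They had the same sign for 63.8% of features. Features are not independent replicates, and arrays with the same number at a time deviated together, only weakly for replicate 1 at 24 h. This is therefore a description only.

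**Figure D1:**
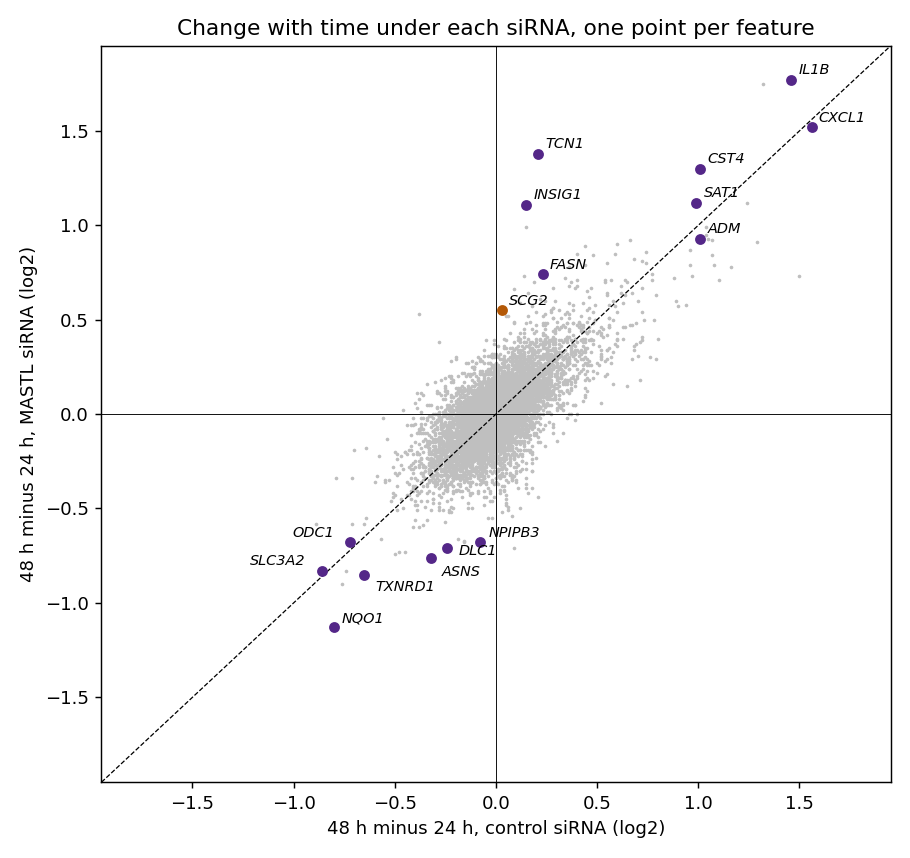
Change from 24 h to 48 h of every tested feature, with control siRNA on the x axis and MASTL siRNA on the y axis, both as log2 differences of group means. The dashed line marks equal change. SCG2 (orange) is the called gene, at 0.03 and 0.55, and other named genes are purple; IL1B, CXCL1 and SLC3A2 lie near the line, TCN1 and INSIG1 above it.

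SCG2 was the gene that passed. It encodes secretogranin II, a granin stored in the dense-core granules of neuroendocrine cells and the precursor of the peptide secretoneurin. It read 7.80 and 7.72 at 24 h and 8.40, 8.26 and 8.26 at 48 h in silenced cells. Every 48 h array lay above both 24 h arrays. It rose 1.46-fold, by 0.55 (SE 0.0453, limma adjusted p = 0.0228, 95% interval 0.44 to 0.65). In control cells the means were 7.57 at 24 h and 7.59 at 48 h, a change of 0.03 (SE 0.0405, limma adjusted p = 0.896). The difference between the 2 time changes was 0.52 (SE 0.0607), which did not pass over all features (limma adjusted p = 0.24). Against control siRNA, SCG2 was higher by 0.19 at 24 h (limma adjusted p = 0.13) and by 0.71 at 48 h (limma adjusted p = 0.000163). All of these levels lie within 1 log2 unit of the noise limit. The call was kept when replicate 1 or 4 of silenced 48 h cells, replicate 2 of 24 h controls or replicate 4 of 48 h controls was left out. It was lost when any of the other 7 arrays was left out, with values between 0.50 and 0.59 and adjusted p up to 0.272. The next features by adjusted p were an unnamed one, ILMN_1772292, at 0.23 (limma adjusted p = 0.0689), then ABL2, a tyrosine kinase of the cytoskeleton, at -0.27 (0.0917) and SIL1, a nucleotide exchange factor of the endoplasmic reticulum, at 0.26 (0.105). Without replicate 2 of the 24 h controls, ILMN_1772292 and ABL2 passed (limma adjusted p = 0.0311 and 0.0453). ABL2 also passed without replicate 4 of silenced 48 h cells (0.0379).

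IL1B and CXCL1 had the largest positive differences among the genes named, and neither passed the test. IL1B, the cytokine interleukin 1 beta, read 8.51 and 8.87 at 24 h and 11.11, 10.88 and 9.39 at 48 h. The 48 h arrays all lay above the 24 h arrays, with replicate 4 closest to them. Its mean went from 8.69 ± 0.253 (SD, n = 2) to 10.46 ± 0.937 (n = 3), a difference of 1.77 (SE 0.614, limma adjusted p = 0.42) or 3.4-fold. CXCL1, a neutrophil-attracting chemokine whose promoter is printed above, read 8.25 and 8.77 and then 10.69, 10.55 and 8.87, a difference of 1.52 (SE 0.592, limma adjusted p = 0.471). Replicate 4 exceeded the higher 24 h array only slightly. Control cells gave 1.46 for IL1B and 1.56 for CXCL1, and replicate 4 was the lowest 48 h array there too. CXCL8, the chemokine interleukin 8, read 10.34 and 11.29 at 24 h and 12.33, 12.07 and 10.40 at 48 h, so the times overlapped (difference 0.79, limma adjusted p = 0.757). Of 20 tested NF-kB and cytokine genes 0 passed, 17 were positive and 3 negative, with a median of 0.111 against 0.117 in control cells. The control median ran from 0.0188, without replicate 1 at 24 h, to 0.215, without replicate 4 at 48 h, and was 0.0774, 0.0299 and 0.0449 without replicate 3 at 24 h, 1 at 48 h and 3 at 48 h. Over all features, 10530 of 22013 were positive and the median was -0.00272. Replicate 4 alone against the 24 h mean gave -0.0339. The group's median was 0.209 without that array, 0.191 without replicate 3 at 24 h, 0.0658 without replicate 3 at 48 h and 0.06 without replicate 1 at 24 h. 4 members were higher on all 48 h arrays and 1 was lower. Members near the noise limit, such as TNF (7.33 and 7.38, then 7.42, 7.35 and 7.37), overlapped between the times.

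SAA1, an acute-phase apolipoprotein, read 7.43 and 7.61 at 24 h and 8.49, 8.82 and 7.99 at 48 h, without overlap, and the difference was 0.92 (control 1.07). Of its other probes, one gave 0.48 and the other, near the noise limit, 0.07. CST4, cystatin S, an inhibitor of cysteine proteases, read 8.18 and 7.83 and then 10.09, 9.49 and 8.31. It differed by 1.30 (SE 0.653, limma adjusted p = 0.573), and its other probe by 1.22. Control cells gave 1.01. Cystatins and serum amyloid A genes have close copies, which one probe may not tell apart. S100A4, a calcium-binding protein linked to cell motility, read 11.25 and 10.10 at 24 h and 12.12, 11.55 and 11.32 at 48 h. Replicate 4 lay only just above the higher 24 h array, and the difference of 0.99 in silenced and 1.04 in control cells was about as large as the gap between the 24 h arrays. KLRC2, a lectin-like receptor known from natural killer cells, read 7.68 and 7.79 and then 8.89, 8.67 and 8.14 (difference 0.84, control 1.07). Its other probe did not exceed the noise limit on any array. CD24, a surface glycoprotein, read 8.67 and 8.24 and then 9.95, 9.50 and 8.73 (difference 0.93, control 1.05), and a weaker probe of the gene gave 0.08.

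2 enzymes at opposite ends of polyamine metabolism differed in opposite directions. SAT1, the acetyltransferase that starts polyamine breakdown, read 10.16 and 9.82 at 24 h and 11.66, 11.11 and 10.56 at 48 h. All 48 h arrays were above the 24 h arrays, with a difference of 1.12 (SE 0.33, limma adjusted p = 0.366) and 0.99 in control cells. ODC1, the decarboxylase that starts polyamine synthesis, read 10.79 and 11.35 and then 10.07, 10.46 and 10.63. All 48 h arrays were lower, with a difference of -0.68 (SE 0.306, limma adjusted p = 0.529) and -0.72 in control cells. Of 12 polyamine genes 7 were positive and 5 negative, with a median of 0.0197, which changed sign without replicate 1 at 24 h (-0.0168) or replicate 3 at 48 h (-0.00831), and 0 passed.

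**Figure D2:**
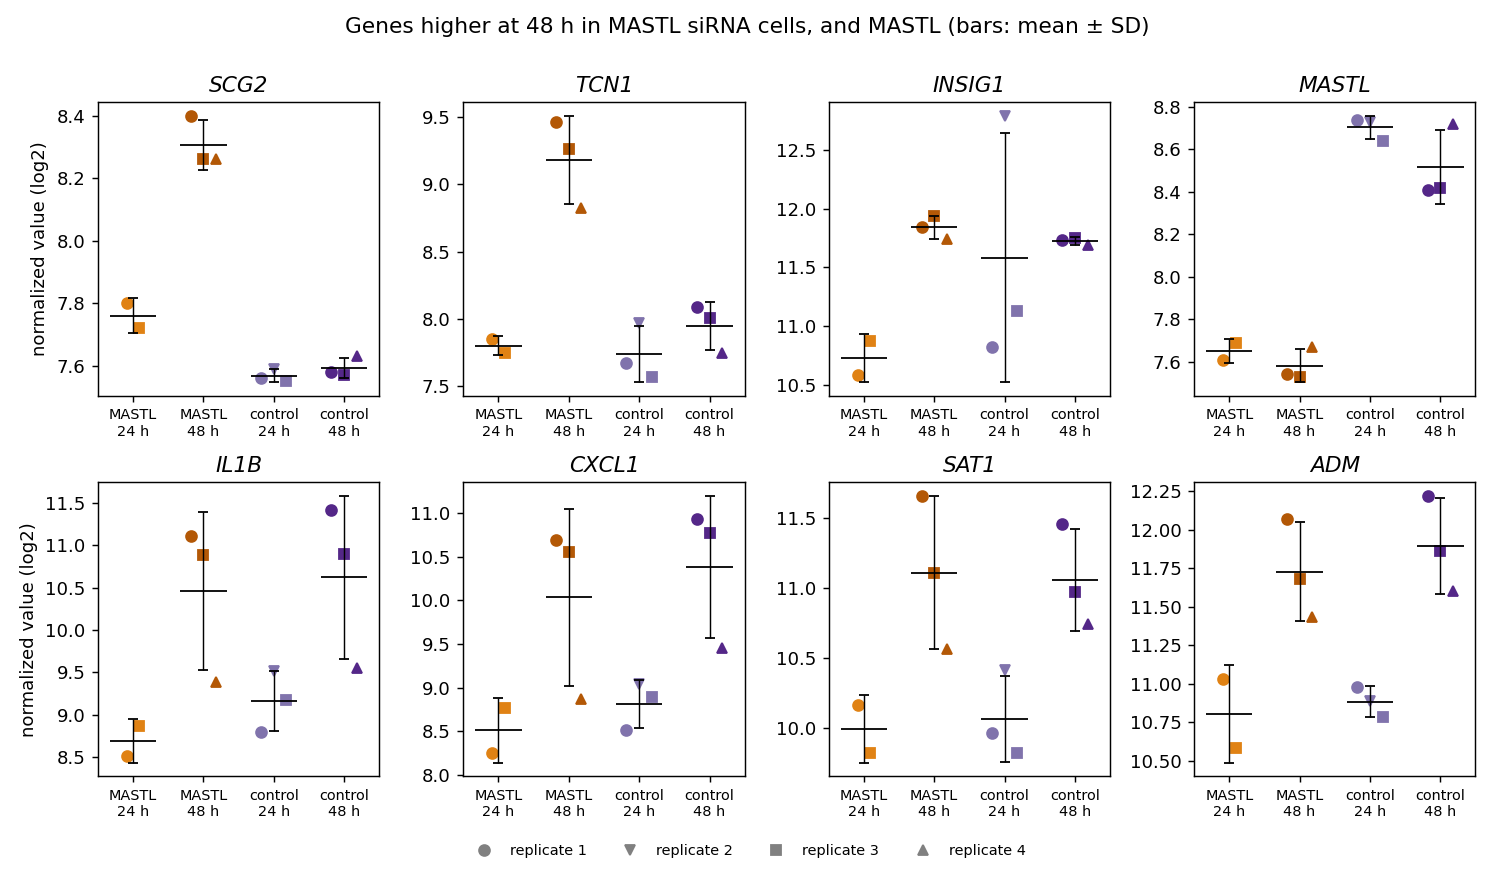
Normalized log2 value of 8 genes on every array, grouped by siRNA and time, with marker shape for replicate number, a line for the group mean and bars for the SD; the y axes do not start at 0. SCG2 and TCN1 are high on the MASTL siRNA 48 h arrays, MASTL is low under its siRNA at both times, and replicate 4 is the lowest 48 h array for IL1B, CXCL1, SAT1 and ADM under both siRNAs.

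TCN1 encodes haptocorrin, a secreted binder of vitamin B12. It read 7.85 and 7.75 at 24 h and 9.46, 9.26 and 8.82 at 48 h in silenced cells, far apart between the times. The mean went from 7.80 ± 0.0693 (SD, n = 2) to 9.18 ± 0.326 (n = 3), a 2.6-fold difference of 1.38 (SE 0.187, limma adjusted p = 0.127). Control cells went from 7.74 to 7.95, by 0.21, and their arrays overlapped. The difference between the time changes, 1.17 (SE 0.251), was the largest among the named genes, but did not pass (limma adjusted p = 1). TCN1 passed for the silenced cells with limma's trend and robust options (adjusted p = 0.0484), with replicates 1 and 3 only (0.00964, or 0.00154 with a block) and with replicate blocks (0.000928, or 0.0147 within each siRNA). The fits with replicates 1 and 3 only leave out the lowest 48 h array, at 8.82. TCN1 did not pass with cyclic loess (limma adjusted p = 0.116), median centring (0.127), or other filters and probe rules (0.116 to 0.15). It also failed with random blocks (0.0517 and 0.0953) and with only the groups compared (0.278). On leaving out an array other than those of silenced cells at 24 h, it did not pass either (0.0599 to 0.25). Leaving out replicate 1 or 3 of silenced cells at 24 h keeps a single array there, so only the difference is given, 1.43 or 1.33.

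The 15 tested genes of sterol synthesis averaged higher at 48 h in silenced cells, or 14 of 15 without replicate 4 at 48 h, and none passed. The comparison with control cells turned on one control array. INSIG1, the sterol sensor that holds SREBP in the endoplasmic reticulum, read 10.58 and 10.87 at 24 h and 11.84, 11.94 and 11.74 at 48 h. Every 48 h array was above both 24 h arrays, by a mean of 1.11, and a weaker probe gave 0.38 in silenced and 0.18 in control cells. The SE from all 11 arrays was 0.471 (limma adjusted p = 0.506), although the SD within the silenced groups was 0.202 and 0.0971. The control arrays at 24 h read 10.82, 12.79 and 11.13, and the replicate at 12.79 is the one named above. Without it the SE was 0.11 and INSIG1 passed (limma adjusted p = 0.0258), and so did MSMO1, a sterol demethylase, at 0.64 (limma adjusted p = 0.0258). The difference of INSIG1 stayed at 1.11. The array was singled out by sterol genes, so these 2 passes are no added support. MSMO1 read 9.56 and 9.64 at 24 h and 10.29, 10.28 and 10.16 at 48 h, with 0.59 and 0.03 on its weaker probes. HMGCS1, which makes HMG-CoA at the head of the pathway, read 8.76 and 8.76 and then 9.15, 9.21 and 9.54, a difference of 0.53 (SE 0.625). DHCR7, which makes cholesterol in the last step, read 8.80 and 8.84 and then 9.09, 9.41 and 9.52. In both, all 48 h arrays were higher.

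Of the 15 sterol genes 10 were higher on every 48 h array and 1 had an unadjusted p under 0.05, against 9.6% of all features. Their median was 0.182, and it lay between 0.138 and 0.204 when any one of the silenced arrays was left out. In control cells 7 of 15 were positive and the median was -0.0444. Without replicate 2 of the 24 h controls 13 of 15 were positive there and the median was 0.175. Without replicate 1 or 3 of that time it was -0.148 or -0.113, and without replicate 1 or 3 at 48 h it was -0.0289 or -0.024. The time change of INSIG1 in control cells went from 0.15 to 0.75 on leaving that array out, that of MSMO1 from 0.16 to 0.72 and that of HMGCS1 from -0.38 to 0.42. The difference between the time changes of INSIG1 was 0.97 with that array and 0.36 without it, and it did not pass either way (limma adjusted p = 1). Fatty acid synthesis genes read alike. FASN, fatty acid synthase, gave 11.18 and 11.19 at 24 h and 11.80, 11.90 and 12.08 at 48 h, a difference of 0.74 (SE 0.334, limma adjusted p = 0.529), all 48 h arrays higher. SCD, the stearoyl-CoA desaturase, gave 12.45 and 12.14 and then 13.24, 12.95 and 12.73, a difference of 0.68. Of 11 such genes 0 passed, 10 were positive and 8 were higher on every 48 h array, with a median of 0.236. The control median was 0.137 with all arrays and 0.341 without the same 24 h control. It was 0.014 and 0.0417 without the other 24 h controls and 0.0904 without replicate 3 at 48 h.

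Hypoxia and glycolysis genes had the largest positive median of the groups read. Of 23 tested members 0 passed, 21 were positive, 10 were higher on every 48 h array and 0 were lower on all. The median was 0.371 in silenced and 0.329 in control cells, or 0.218 there without replicate 1 at 48 h. ADM, the vasodilator adrenomedullin, read 11.03 and 10.58 at 24 h and 12.07, 11.68 and 11.43 at 48 h, a difference of 0.93 (SE 0.225, limma adjusted p = 0.275) against 1.01 in control cells. ALDOC, a glycolytic aldolase, read 8.65 and 8.29 and then 9.63, 9.38 and 9.26, a difference of 0.95 (SE 0.408). ANGPTL4, an inhibitor of lipoprotein lipase, read 10.02 and 9.47 and then 10.91, 10.57 and 10.52, a difference of 0.92 (SE 0.238, control 0.66), with 0.23 and 0.03 on its other, weaker probes. In these 3 genes no 48 h array overlapped the 24 h arrays. LDHA, lactate dehydrogenase A, read 13.69 and 13.65 and then 14.01, 13.96 and 13.98, a small but even difference of 0.31 (SE 0.068, limma adjusted p = 0.237). TPI1, triosephosphate isomerase, differed by 0.67 (SE 0.15) in silenced and 0.28 in control cells, with the difference between them, 0.39, not passing. HK2, hexokinase 2, was one of the 2 negative members, at -0.13. By array the group's median against the 24 h mean was 0.593, 0.394 and 0.152 for replicates 1, 3 and 4, and over all arrays but replicate 3 at 24 h it was 0.244.

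Interferon genes were mostly positive, with unlike medians by array. Of 28 tested members 0 passed, 23 were positive and 8 were higher on every 48 h array, with a median of 0.223, or 0.128 without replicate 3 at 48 h. In control cells it was 0.132, or 0.0457 without replicate 3 at 48 h. The medians by array were 0.163, 0.368 and -0.00684 for replicates 1, 3 and 4. IFI27 read 7.47 and 7.42 at 24 h and 8.15, 9.07 and 7.50 at 48 h, so that replicate 4 was at the 24 h level. IRF9, the DNA-binding part of the interferon-stimulated factor, read 9.53 and 9.06 and then 10.10, 10.60 and 9.35, with overlap. ISG15, a ubiquitin-like modifier, differed by 0.38 in silenced and -0.28 in control cells, and the difference between them, 0.66, did not pass.

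The antioxidant genes under NRF2 were lower at 48 h in every member. NQO1, a quinone reductase, read 12.22 and 12.23 at 24 h. At 48 h it read 11.25 and 11.04 on replicates 1 and 3 and slightly lower on replicate 4, with a mean of 11.10 ± 0.136 (SD, n = 3). The 48 h arrays lay about 1 log2 unit below the 24 h arrays, a difference of -1.13 (SE 0.23, limma adjusted p = 0.216) or 2.19-fold. Without replicate 2 of the 24 h controls the SE was 0.0688 and NQO1 passed (limma adjusted p = 0.00625). The difference stayed at -1.13, and NQO1 is among the genes that singled out that array. In control cells it differed by -0.80 with that array and by -1.09 without it. Its other probe, close to the noise limit, gave -0.04. TXNRD1, thioredoxin reductase, read 11.54 and 11.35 and then 10.36, 10.48 and 10.95, lower on all 48 h arrays (-0.85, SE 0.199, limma adjusted p = 0.26), and its other probe gave -0.74. PTGR1, a reductase of leukotrienes and alkenals, read 9.61 and 9.72 and then 8.88 and 8.90 on replicates 1 and 3, with replicate 4 slightly above them (-0.74, SE 0.203, limma adjusted p = 0.316). GCLC, which makes the first peptide bond of glutathione, read 8.85 and 8.78 and then 8.48, 8.45 and 8.44, and SRXN1, sulfiredoxin, read 9.42 and 9.43 and then 8.95, 8.96 and 8.93. Both were lower on every 48 h array, and both passed without that control array (limma adjusted p = 0.0296 and 0.013). HMOX1, heme oxygenase, read 8.45 and 8.16 and then 8.04, 7.95 and 7.91.

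All 9 tested NRF2 targets were negative and lower on every 48 h array, against a background of 14.9% of features. 0 passed with all arrays, and 8 had an unadjusted p under 0.05, against 9.6% of all features. The median was -0.383, between -0.43 and -0.352 when any one silenced array was left out, and the replicates gave -0.445, -0.435 and -0.394. In control cells all 9 were negative too, with a median of -0.304, or -0.368 without the 24 h replicate 2. Leaving that array out gave 21 calls in silenced cells, 8 higher (0.0363%) and 13 lower (0.0591%). Beside SCG2 they included INSIG1, MSMO1, NQO1, GCLC and SRXN1, and RIOK2 and MPHOSPH10, which act in ribosome maturation.

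Amino acid genes under ATF4 split. The lower side held transporters and synthases. SLC3A2, the heavy chain of several amino acid exchangers, read 10.95 and 10.85 at 24 h and 9.82, 9.99 and 10.41 at 48 h, lower on all arrays (-0.83, SE 0.158, limma adjusted p = 0.186, control -0.86), with -0.70 on its other probe. ASNS, asparagine synthetase, whose promoter is printed above, read 10.30 and 10.22 and then 9.32, 9.51 and 9.68, a difference of -0.76 (SE 0.132, limma adjusted p = 0.186). Control cells gave -0.32, and the difference between them, -0.43 (SE 0.177), did not pass (limma adjusted p = 1). The other ASNS probe gave -0.33 in silenced and -0.16 in control cells. SLC7A5, the partner of SLC3A2 in the leucine exchanger, read 11.66 and 11.43 and then 10.52, 10.96 and 11.43, with replicate 4 level with the lower 24 h array. PSAT1, of serine synthesis, read 10.23 and 10.24 and then 9.37, 9.87 and 9.78 (-0.56, SE 0.191). PPP1R15A, which recruits the phosphatase that reverses the stress mark on eIF2, read 11.54 and 11.60 and then 10.76, 11.12 and 10.86, lower on every array (-0.66, SE 0.145, limma adjusted p = 0.244). On the higher side, DDIT4, an inhibitor of mTORC1, read 10.68 and 9.84 and then 11.08, 10.67 and 11.12, with overlap (difference 0.70). The factor itself, ATF4, read 12.56 and 12.43 and then 12.03, 12.17 and 12.48, also with overlap (-0.26), and its other probes gave 0.01 and -0.11. Of 18 tested members 0 passed, 6 were positive, 12 negative and 10 lower on every 48 h array, with a median of -0.194 in silenced and -0.122 in control cells. Without replicate 1 at 24 h or at 48 h that of silenced cells was -0.128 or -0.127.

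**Figure D3:**
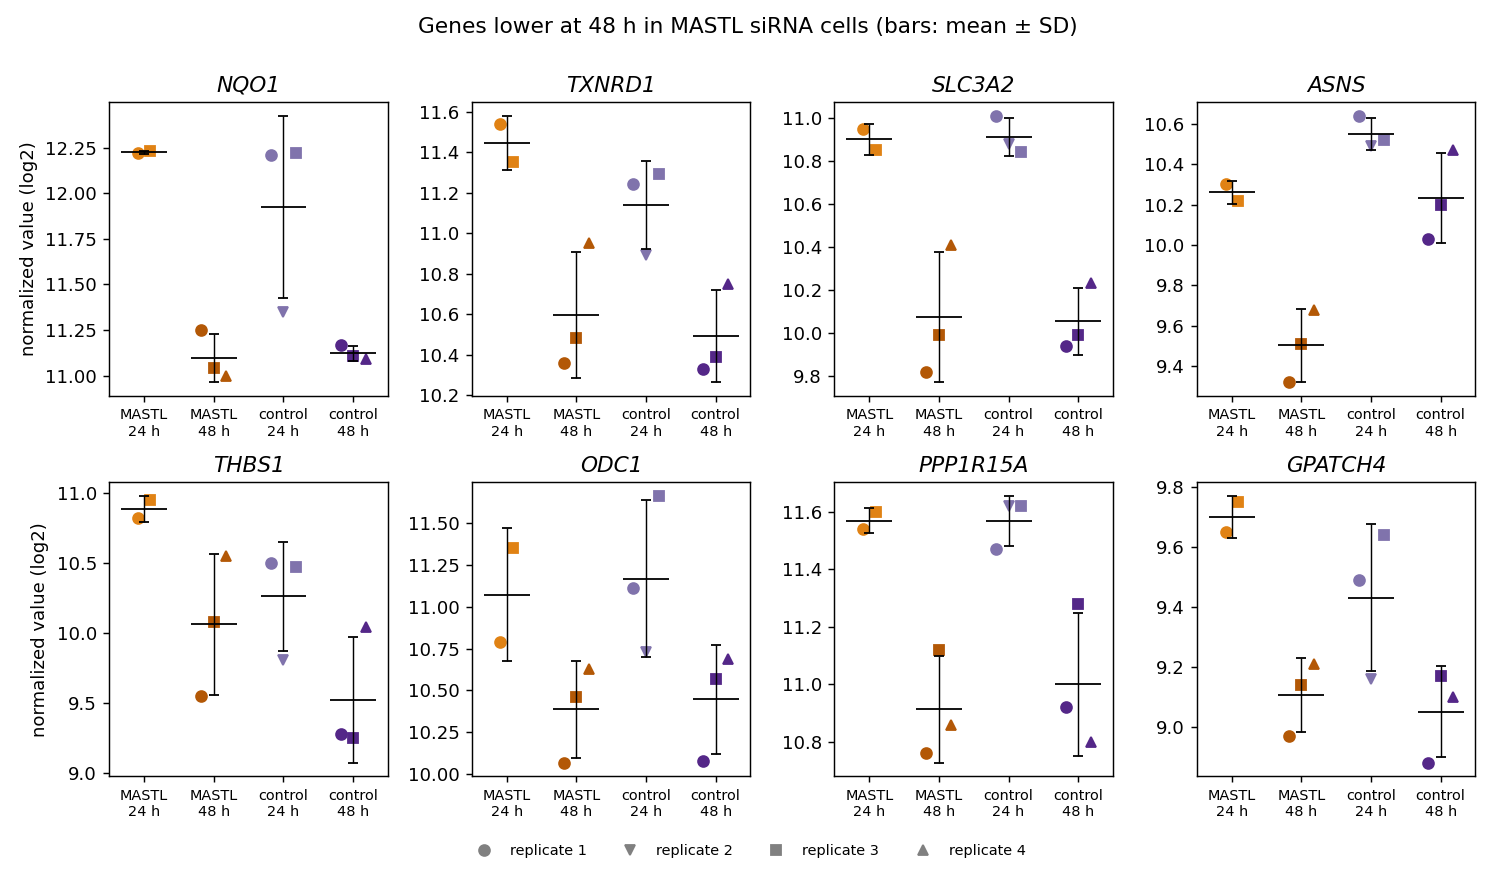
Normalized log2 value of 8 genes that were lower at 48 h in MASTL siRNA cells, on every array, drawn as in the plot of higher genes; the y axes do not start at 0. The 48 h arrays under MASTL siRNA lie below both 24 h arrays for all 8 genes, and replicate 2 of the 24 h controls reads NQO1 near the 48 h level.

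Genes of ribosome production were mostly lower. Of 19 tested members 0 passed, 18 were negative and 12 were lower on every 48 h array, with a median of -0.251 in silenced and -0.282 in control cells, or -0.179 there without replicate 3 at 24 h. RRP12, which exports ribosomal subunits, read 8.93 and 8.98 at 24 h and 8.44, 8.65 and 8.60 at 48 h (-0.39, SE 0.0859, limma adjusted p = 0.242). DKC1, the pseudouridine synthase dyskerin, read 11.40 and 11.48 and then 10.73, 11.06 and 11.13 (-0.47, SE 0.163). GPATCH4, a nucleolar protein named for its size of change, read 9.65 and 9.75 and then 8.97, 9.14 and 9.21 (-0.60, SE 0.139, limma adjusted p = 0.26), with -0.20 on each of its 2 weaker probes. In all 3 the times did not overlap. MYC overlapped between the times (10.65 and 10.83, then 10.69, 10.70 and 10.52), with -0.10 in silenced and -0.39 in control cells. Of 14 heat shock chaperone genes 11 were negative, with a median of -0.156, or -0.0917 without replicate 3 at 24 h, and -0.45 (SE 0.0971) for HSPA1B, whose probe may also read its near-identical neighbour HSPA1A.

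Genes of the cell cycle were lower on average, with an order by replicate. Of 32 tested G2-M genes 0 passed, 31 were negative and 11 were lower on every 48 h array, with a median of -0.228 in silenced and -0.242 in control cells. Against the 24 h mean the medians of the 48 h arrays were -0.492 for replicate 1, -0.201 for replicate 3 and 0.0283 for replicate 4. The group's median was -0.349 without replicate 4 and -0.0943 without replicate 1. That of control cells was -0.37 and -0.13 without the same replicates. In RNA from whole cultures, fewer cells of a kind and less RNA per cell cannot be told apart. CCNA2, cyclin A2, read 10.46 and 10.72 at 24 h and 9.66, 10.10 and 10.49 at 48 h, so that replicate 4 lay at the 24 h level (-0.51, SE 0.262, limma adjusted p = 0.582). CDC20, an activator of the anaphase-promoting complex, read 12.52 and 12.67 and then 11.93, 12.32 and 12.43, lower on all arrays (-0.37, SE 0.15). CCNB1, cyclin B1, the partner of CDK1 whose substrates the Greatwall pathway protects, read 9.17 and 9.24 and then 8.76, 9.02 and 9.15 (-0.23). AURKA, a mitotic kinase, read 10.14 and 10.35 and then 9.69, 10.31 and 10.59, spanning the 24 h arrays (-0.05 in silenced, -0.35 in control cells).

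Of 28 replication genes 0 passed, 26 were negative and 15 were lower on every 48 h array, with a median of -0.236 in silenced and -0.252 in control cells. By replicate the medians were -0.453, -0.183 and -0.0678, and the group's median was -0.147 without replicate 1. That of control cells was -0.161 without their replicate 1 at 48 h. MCM7, part of the replicative helicase, read 12.54 and 12.51 and then 12.10, 12.24 and 12.33, below the 24 h arrays throughout (-0.30, SE 0.0636, limma adjusted p = 0.223). FEN1, the flap endonuclease, read 11.52 and 11.64 and then 10.69, 11.19 and 11.51, with replicate 4 just under the lower 24 h array (-0.45, SE 0.215). Among 15 inhibitors and quiescence genes 12 were positive with a median of 0.126, or 0.208 without replicate 4. CDKN1A, the inhibitor p21, read 11.22 and 11.36 and then 12.30, 12.16 and 10.84. Replicates 1 and 3 were higher and replicate 4 lower than both 24 h arrays (0.48, SE 0.433, limma adjusted p = 0.772). Over the 16 p53 targets 9 were positive and the median was 0.0147, between 0.00884 and 0.0347 on leaving out one silenced array.

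**Figure D4:**
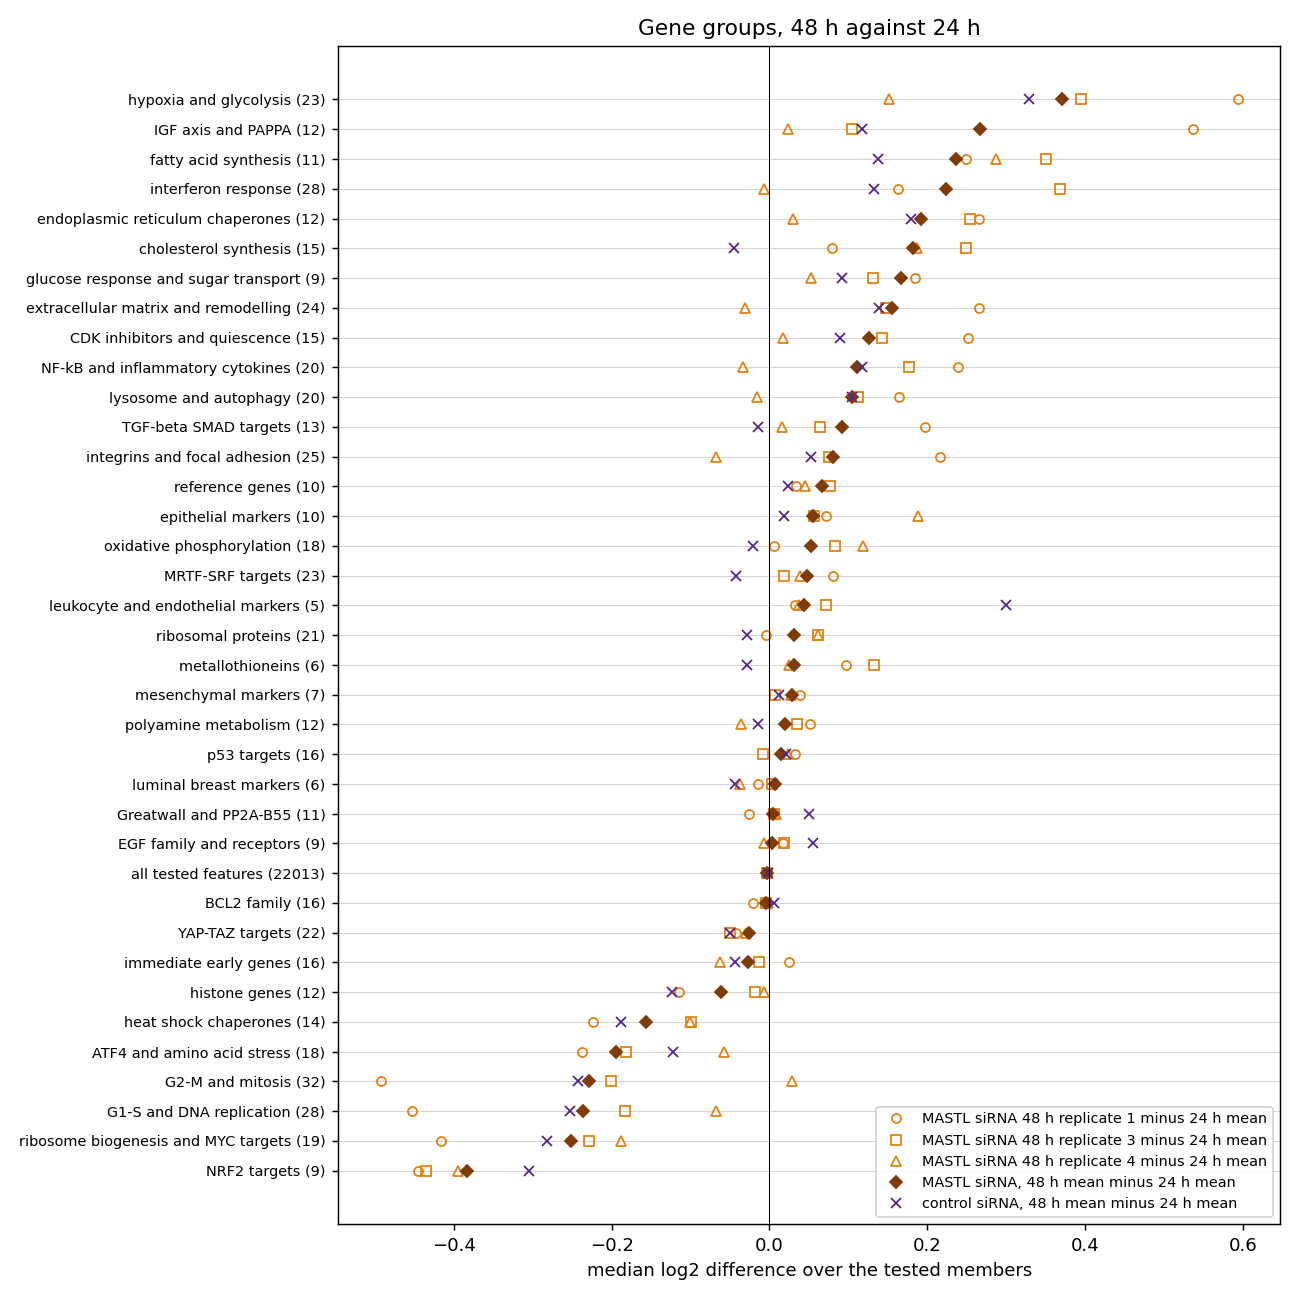
Median log2 difference at 48 h over the tested members of each gene group (number in brackets), for each MASTL siRNA 48 h array against the 24 h mean, for the MASTL siRNA means and for the control siRNA means. Between the MASTL siRNA means (diamonds) the NRF2 targets have the lowest median, -0.383, and hypoxia genes the highest, 0.371; single arrays rank the groups otherwise. Replicate 4 lies nearest 0 in the G2-M, hypoxia and interferon groups; no member of any group passed the test.

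Matrix and growth factor genes completed the picture of secreted products. THBS1, the matrix protein thrombospondin 1, read 10.82 and 10.95 at 24 h and 9.55, 10.08 and 10.55 at 48 h, lower on every array (-0.83, SE 0.343, limma adjusted p = 0.498, control -0.74). COL4A1, a basement membrane collagen, read 10.05 and 9.95 and then 10.77, 10.53 and 10.51, higher on every array (0.60, SE 0.136, limma adjusted p = 0.26, control 0.29). PLAT, tissue plasminogen activator, differed by 0.80 (SE 0.288). Of 24 matrix genes 18 were positive, with a median of 0.155 in silenced and 0.139 in control cells. That of silenced cells was 0.0804 without replicate 1 at 48 h and 0.0715 without replicate 3 at 24 h, and that of control cells 0.24 without replicate 4 at 48 h. In the IGF axis, STC1, a stanniocalcin that inhibits the protease PAPPA, read 9.81 and 10.08 and then 10.81, 10.76 and 10.41 (0.71, SE 0.175, limma adjusted p = 0.276, control 0.40). IGFBP4, the substrate of PAPPA, read 11.94 and 11.30 and then 12.33, 12.30 and 12.11 (0.63, SE 0.221). PAPPA itself read 9.34 and 9.44 and then 10.23, 9.88 and 9.40, with overlap. IRS2, an adaptor of the insulin and IGF receptors, was lower on every 48 h array (-0.24, SE 0.0597, limma adjusted p = 0.277). DLC1, a GTPase-activating protein for RhoA, read 8.50 and 8.63 and then 7.88, 7.69 and 7.98 (-0.71, SE 0.303), and GPAT3, an acyltransferase of triglyceride synthesis, read 10.25 and 10.01 and then 9.63, 9.53 and 9.41 (-0.60, SE 0.148). In both, no 48 h array reached the 24 h arrays. NPIPB3, at 11.01 and 10.66 and then 10.22, 9.78 and 10.46 (-0.68), belongs to a family of near-identical copies that a probe may not separate.

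The difference between the time changes of silenced and control cells passed in no gene. Its lowest p belonged to SCG2, described above with TCN1 (1.17). The other genes chosen by p had differences between 0.20 and 0.44 in size (limma adjusted p = 1 for each). PRMT1, an arginine methyltransferase, read 9.98 and 9.98 at 24 h and 10.09, 10.10 and 10.27 at 48 h, by 0.18 in silenced and -0.27 in control cells, a difference of 0.44 (SE 0.0821). CDK5, a kinase active in neurons, read 9.24, 9.25 and 9.18 at 48 h, all above its 24 h arrays, of which the higher was at 9.02. Its time change was 0.21 against -0.13 in control cells. GFUS, which makes GDP-fucose, differed by 0.21 in silenced and -0.06 in control cells. RIOK2, a kinase of small subunit maturation, read 8.47 and 8.47 and then 8.20, 8.24 and 8.18. It was lower on every array by a mean of -0.26 (SE 0.0488), against 0.06 in control cells. TTC31, TMEM214 and TCTA were lower in silenced cells, at -0.23, -0.15 and -0.14. SP140, a nuclear body protein of lymphoid cells, differed by 0.05 in silenced and 0.38 in control cells.

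For 6 of the 10 genes most responsive to the siRNA itself, the time change was at most 0.12 in size. The 10 genes had the smallest p for MASTL against control siRNA averaged over both times, and their level at 24 h already differed from control. That average includes the 24 h arrays, so the difference at 24 h follows in part from the choice. GTF2E2, a subunit of the basal factor TFIIE, read 8.57 and 8.55 at 24 h and 8.55, 8.62 and 8.49 at 48 h, a time change of -0.01 (SE 0.0549), and control means were 9.78 and 9.89. AKTIP, AP3M1, UBQLN2 and CWC27 likewise had time changes of -0.00, -0.01, -0.02 and 0.04, each with an SE under 0.05. RAP2A, a small GTPase, read 8.19 and 8.18 and then 8.51, 8.50 and 8.41, a time change of 0.29 in silenced and 0.29 in control cells. DENR, a translation reinitiation factor, differed by 0.28, but its other probe gave -0.38. HIGD1A, a mitochondrial protein induced by hypoxia, differed by 0.26, with 0.06 and 0.22 on its other probes. PFDN1, a prefoldin subunit, read 8.70 and 8.72 and then 8.89, 8.87 and 8.95, without overlap, a time change of 0.19 (SE 0.036, limma adjusted p = 0.186) against -0.04 in control cells. DESI2, the one gene of the 10 that was higher under MASTL siRNA, differed by -0.12.

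**Figure D5:**
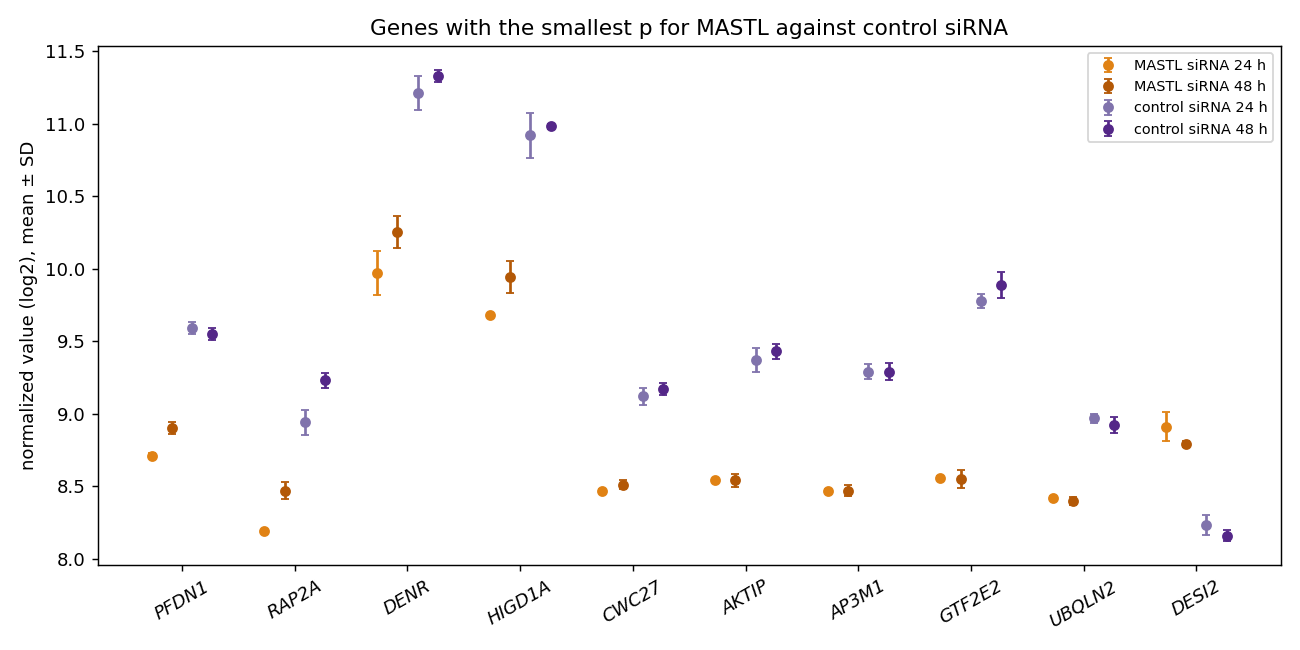
Mean normalized log2 value with SD bars of the 10 genes with the smallest p for MASTL against control siRNA, by siRNA and time; the y axis does not start at 0. MASTL siRNA means lie apart from control means at both times, which follows in part from the choice of genes. The 24 h and 48 h MASTL siRNA means of GTF2E2 (8.56 and 8.55), AKTIP, AP3M1 and UBQLN2 nearly coincide.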

How the data were processed

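RNA of MDA-MB-231 cells was hybridised to 11 Illumina 1-colour bead arrays, and 5 of them carry the comparison. Analysis began from log2 values that the authors had normalized and deposited. The submitters' processing notes name lumi; its version and role are not given in the sources used here. The sorted values of any array differed from those of another by at most 0.000698, so arrays had been made equal in distribution. Taking the scale as log2 rests on the range of the values, 7.2365 to 14.5122, and whether a variance-stabilizing transform was used is not stated. The arrays carry no date or slide that could be tested as a batch. The number of arrays limits the precision. A second deposited table, holding 11 signal columns and 11 columns of detection p-values, was left aside, since nothing ties its columns to samples. The design had put detection p-values first, and a noise limit took their place.

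The limit, 7.41, is the 95th percentile of the noise obtained by mirroring the values below the most common value, 7.357. Probes above it on at least 2 of 11 arrays were kept, 27159 in all. 30113 probes had 1 gene symbol in the platform annotation, 8 had several and 17200 had none, and 30074 symbols were updated through the Entrez number. The probe of highest mean stood for a gene. Using R 4.3.3 and limma 3.58.1 (lmFit, eBayes), a mean for each of 4 groups was fitted (7 residual and 1.67 prior degrees of freedom). A feature was called at a two-sided Benjamini-Hochberg adjusted p under 0.05. The code was tested on simulated data. Python 3.11.15 with matplotlib 3.10.9 drew the figures.

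The genes, lists and tests were chosen with earlier results of these data known. Named are MASTL and called genes filled up to the 12 largest changes in each direction. Those filled in were at least 0.5 above the noise limit and did not overlap. Added were the 5 smallest p in each direction for the difference and the 8 largest changes shared with control cells. The 10 genes of smallest p for the siRNA were named too. Per list, the rule drew the 2 members of highest level and the 1 of largest change, and not all of these are given above. Of those left out, CEBPB (0.20) among ATF4 genes, FBL (0.09) among ribosome genes and ENO1 (-0.05) among hypoxia genes ran against their group. FTL (-0.23) among NRF2 targets and UBE2C (-0.28) among G2-M genes, also left out, ran with theirs. Further members are named as examples chosen after their values were seen. Alternatives were cyclic loess, median centring, other filters and probe rules, limma's trend and robust options, only the groups compared, replicate blocks and leaving out each array. Across times, deviations of arrays with the same number correlated weakly (0.119 and 0.109 for MASTL siRNA, -0.0842 and -0.206 for control siRNA). With 2 silenced arrays at 24 h, their deviations mirror each other, so the MASTL siRNA values are not independent. A pairing across times was therefore neither shown nor excluded. Within a time, deviations of control and MASTL siRNA arrays with the same number correlated at 0.693, 0.549 and 0.773 at 48 h. At 24 h the values were 0.104 for replicate 1 and 0.47 for replicate 3, and the mirroring of the silenced arrays limits these too.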

Additional observations from a re-analysis of the deposited data

How the results depend on the processing

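The number of calls for 48 h against 24 h in silenced cells, 1 in the fit reported, was 1 with cyclic loess, median centring, a stricter filter and other probe rules. It was 2 with no filter, 4 with limma's trend and robust options, and 0 with only the groups compared. With a replicate block it was 1691 (990 higher, 701 lower), with a block within each siRNA 135, with a random block 3, with replicates 1 and 3 only 139, and with those and the block 997. Leaving out one array gave 0 to 21, the latter without replicate 2 of the 24 h controls. For control cells the count was 5 with trend and robust options, 2570 with the replicate block, 885 with the block within each siRNA, 609 with replicates 1 and 3 only, 1797 with those and the block, and 0 to 39 on leaving out one array. For the difference it was 1 with trend and robust options, which called SCG2, 2 with replicates 1 and 3 and the block, and 0 on leaving out any array or with the block within each time. Whether the numbers pair arrays across times was not settled, so the counts with a replicate block are not read as evidence of more or fewer changes. The cause of these shifts was not tested. All 600 values of the 24 genes of largest change under these alternatives kept their direction. Of 21 other probes of the genes named by size, difference or shared change, 2 near the noise limit, of NPIPB3 and DLC1, did not share the sign. Beyond these, DENR differed by 0.28 with -0.38 on its other probe, and ATF4 by -0.26 with 0.01 on one other. Signals close to the noise limit bound what could be seen in weak genes, MASTL under its siRNA among them.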

Other observations

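Several groups of genes showed no common direction at 48 h in silenced cells, and no member of any passed the test. The median difference was 0.0471 over 23 MRTF-SRF targets, -0.0264 over 22 YAP-TAZ targets and -0.0275 over 16 immediate early genes. Leaving out one silenced array gave 0.0274 for the first and -0.0146 or -0.0478 for the second, and turned the third to 0.00327. CCN2, a matricellular target of YAP, read 11.96 and 12.04 at 24 h and 11.53, 11.67 and 11.71 at 48 h, lower on every array (-0.36, SE 0.182, limma adjusted p = 0.572, control -0.55). IER3, an early survival gene, read 13.42 and 13.38 and then 13.95, 13.82 and 13.58 (0.38, SE 0.132, limma adjusted p = 0.417). Over the 16 members of the BCL2 family 8 were positive and 8 negative, with a median of -0.00432 that was 0.0059 without replicate 1 at 48 h and 0.013 without replicate 3 at 24 h. BNIP3, a mitophagy receptor that is also a hypoxia gene, read 12.26 and 11.99 and then 13.07, 12.82 and 12.37 (0.63, SE 0.258).

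The median was 0.0528 in silenced and -0.0208 in control cells over 18 oxidative phosphorylation genes, and 0.031 and -0.0279 over 21 ribosomal proteins. COX5B, a subunit of cytochrome c oxidase, read 12.23 and 12.26 and then 12.51, 12.43 and 12.62, higher on every array (0.28, SE 0.106, limma adjusted p = 0.468), against -0.12 in control cells. Without replicate 4 at 48 h the ribosomal protein median of silenced cells was -0.0116. That of oxidative phosphorylation was 0.108 without replicate 1 at 48 h in silenced cells, and 0.0108 without replicate 3 at 24 h in control cells. Endoplasmic reticulum chaperones had a median of 0.192 over 12 genes and genes of glucose response one of 0.166 over 9. Replicate 4 alone against the 24 h mean gave 0.0304 and 0.0531. In control cells the medians were 0.179 and 0.0922. With one control array left out they ran from 0.137 to 0.282 and from 0.0469 to 0.166. For other groups the median moved by more than 1.5 times with single silenced arrays. It was 0.104 over 20 lysosome genes (0.0194 without replicate 1 at 48 h, 0.0201 without replicate 3 at 24 h), 0.0913 over 13 TGF-beta targets (0.0397 and 0.137 without replicates 1 and 3 at 48 h) and 0.0801 over 25 integrin and adhesion genes (0.0273 without replicate 3 at 24 h, 0.177 without replicate 4 at 48 h). It was 0.0305 over 6 metallothioneins (0.00483 and 0.115 without replicates 1 and 4 at 48 h), -0.0616 over 12 histone genes (0.0127 without replicate 3 at 24 h) and 0.0671 over 10 reference genes (0.0225 without replicate 3 at 24 h, 0.11 without replicate 1 at 24 h). GAPDH differed by 0.06 and ACTB by 0.07. KRT19, an epithelial keratin, read 11.67 and 11.15 and then 12.64, 12.29 and 11.99, higher on every 48 h array (0.89, SE 0.4, limma adjusted p = 0.528, control 0.44). EPCAM went the other way, from 9.52 and 9.47 to 8.98, 9.09 and 9.54, with overlap (-0.29). Of 10 tested epithelial markers 8 were positive and 2 negative, with a median of 0.0553.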
